A study of Mus musculus with 12 samples.

Results

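Bulk RNAseq at Day 7 compared neonatal mouse cardiac fibroblasts that received *Sox17* and *Erg* by retrovirus (*Sox17*-*Erg* samples) with control cultures of the same age. The control libraries are labelled PMX, which is also the name of the retroviral backbone in the methods of the study. All 4 libraries labelled Day 7 were compared, 2 on each side. The fit was made over all 12 libraries of the study, so standard errors and adjusted p values also rest on the spread at Day 3 and 4 weeks. The fibroblasts came from pooled newborn hearts, the labels name heart as the tissue and EGM2, an endothelial growth medium, for both groups, and they call the control cells fibroblasts and the *Sox17*-*Erg* cells iEC, for induced endothelial cells. The methods of the study name C57BL/6J mice, or *Tcf21*-CreERT2 mice bred with *Rosa26*-tdTomato, as the source of its cells, without saying which served here. Its infection protocol takes up the retroviruses in medium with polybrene, and no further agent is named for these libraries. Beside the retroviral factors, every group therefore shares the endothelial medium. The protocol of the study selects fibroblasts with a THY1 antibody and, for the characterization of the induced cells, adds a step that depletes PECAM1-positive cells. No sorting of cells is described for these libraries, so in each value below fewer cells of a type and less RNA per cell cannot be told apart, and reads of the retroviral copies of *Sox17* and *Erg* are counted with those of the endogenous genes.

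SOX17 and ERG are transcription factors of endothelium. SOX17 is known for its part in arterial specification, where it acts together with the Notch pathway, and ERG, an ETS factor, keeps junction genes such as *Cdh5* active and holds inflammatory genes low in endothelial cells. Cardiac fibroblasts are the main producers of fibrillar collagen and proteoglycans in the heart, and they also make complement proteins and respond to interferon. In fibroblast reprogramming, the questions for a bulk profile are which endothelial programs have been turned on, which fibroblast programs have been turned down, and what else moved.

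Library totals at Day 7 were 25054384 and 25748545 counts in the control libraries and 36835500 and 22757129 in the *Sox17*-*Erg* libraries, and values are given as CPM, counts scaled to the library total after TMM normalization, first for replicate 1 and then for replicate 2. Of 35727 genes, 15506 passed the filter on low counts and were tested. The cultures carried fibroblast transcripts in both groups. *Thy1*, the surface protein used to select the cells, was at 349 and 296 CPM in control and at 245 and 332 CPM in *Sox17*-*Erg* libraries (log2 fold change -0.16 ± 0.25 SE, adjusted p = 0.70), so these ranges overlapped. Some endothelial transcripts were uneven between the control libraries, where *Tie1* was at 0.154 and 4.94 CPM and *Vwf*, the clotting factor stored by endothelium, at 0.806 and 11.4 CPM. Others were not, such as *Kdr* at 2.77 and 2.53 CPM, and *Ptprb* was higher in replicate 1, at 56.2 and 36.6 CPM. *Vwf* was at 4.96 and 6.33 CPM in *Sox17*-*Erg* libraries, which lay between the control values, and its log2 fold change turned from -0.11 to 2.79 without control replicate 2 (adjusted p = 0.95 and 0.038).

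*Sox17* was at 0.0384 and 0.0804 CPM in control libraries, which is 1 and 2 counts, and at 999 and 791 CPM with *Sox17*-*Erg*. *Erg* was at 0.0768 and 1.37 CPM in control and 19.4 and 17.1 CPM in *Sox17*-*Erg* libraries (log2 fold change 4.67 ± 1.05 SE, adjusted p = 0.017), a call lost with the Day 7 libraries alone. Both factors were far higher in both *Sox17*-*Erg* libraries than in control libraries, although *Erg* passed the threshold when control replicate 2 or *Sox17*-*Erg* replicate 2 was left out (adjusted p = 0.028 and 0.031) and missed it without control replicate 1 or *Sox17*-*Erg* replicate 1 (0.070 and 0.067). Fitted over all genes, edgeR's quasi-likelihood test called 17.4% of the tested genes at a Benjamini-Hochberg adjusted p under 0.05, 9.48% higher and 7.93% lower in *Sox17*-*Erg* samples. The called genes that rose had a median log2 fold change of 1.08, and 399 of them exceeded 2 and 134 exceeded 4. The genes that fell had a median of -1.33, with 362 past -2 and 56 past -4. Genes called higher made up 7.13% and 6.58% of the counts of the control libraries and 15.6% and 13.5% of those of the *Sox17*-*Erg* libraries, while genes called lower made up 13.1% and 15.1% against 4.44% and 6.48%. Over all tested genes the median log2 fold change was 0.006. Leaving out *Sox17*-*Erg* replicate 1 reduced the calls to 623 higher and 297 lower genes, so this library, the deeper of the pair, decides many calls.

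**Figure D1:**
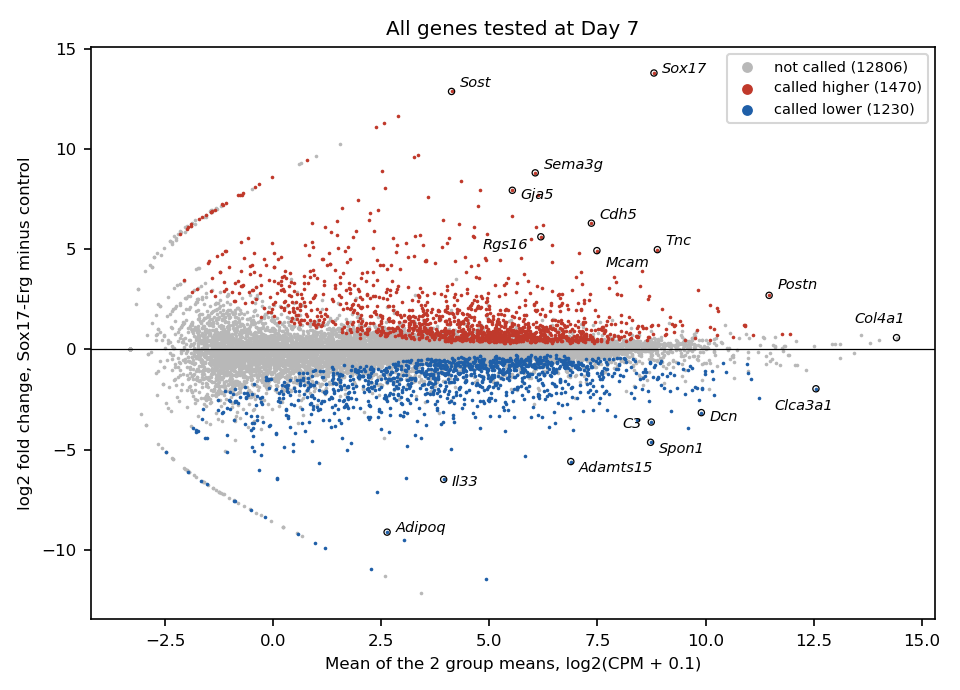
Each point is 1 of the 15506 genes tested at Day 7, with its mean level on the horizontal axis, as log2 of CPM plus 0.1, and its log2 fold change, *Sox17*-*Erg* minus control, on the vertical axis. Red points were called higher (1470), blue points lower (1230) and grey points neither, and the arcs at low level are genes with no count in 1 group, whose fitted value depends on the prior count and is no bound.

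*Sox17*, *Myct1* and 8 further genes had the smallest p-values among those that rose. *Rgs16*, a brake on G protein signaling, rose from 2.80 and 3.01 CPM in control libraries to 146 and 140 CPM (log2 fold change 5.61 ± 0.24 SE, adjusted p = 1.9e-05). *Pcyt1b*, an enzyme of phosphatidylcholine synthesis, was at 2.42 and 1.53 CPM in control and at 140 and 128 CPM in *Sox17*-*Erg* libraries (6.08 ± 0.30, adjusted p = 1.9e-05). *Magix* was at 0.730 and 0.683 CPM and then at 50.6 and 47.9 CPM (6.11 ± 0.29, adjusted p = 1.9e-05). In each of these genes the replicates lay close together and the groups far apart, which a choice by the smallest p-values favors. *Fgd3* went from 9.75 and 9.97 CPM to 53.5 and 47.9 CPM (2.36 ± 0.12, adjusted p = 1.9e-05). *Rasgrp3*, an activator of RAS and RAP1 expressed in vessels, went from 0.922 and 1.13 CPM to 56.7 and 41.7 CPM (5.59 ± 0.32, adjusted p = 3.9e-05). *Cdc14a*, a phosphatase, *Fam213a* and *Zfp69* were the others in this set, with log2 fold changes of 4.59, 4.35 and 4.45. All 8 genes were called when any 1 of the 4 libraries was left out.

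Several genes were absent from control libraries and present in both *Sox17*-*Erg* libraries. *Sost*, which encodes the secreted Wnt inhibitor sclerostin and is best known from osteocytes, had 0 counts in both control libraries and 37.0 and 32.4 CPM in *Sox17*-*Erg* libraries, which is at least 294-fold higher against a floor of 3 counts in each control library. *Pmch*, which encodes the melanin-concentrating hormone precursor of the hypothalamus, was at 0 and then at 11.6 and 17.8 CPM, at least 125-fold higher. *Tmem28* and *Npffr1*, a neuropeptide receptor, were also at 0 in control and at least 98-fold and at least 86.7-fold higher. None of the 4 is a standard marker of endothelium. *Shh*, the hedgehog ligand, was at 0 in control and at a low 1.65 and 1.89 CPM in *Sox17*-*Erg* libraries, at least 15-fold higher. *Sox21*, a neural Sox factor, had 1 and 0 counts in control and was at 15.1 and 7.65 CPM, and *Gna14*, a G protein subunit, had the same control counts and 17.2 and 20.9 CPM. By a stated minimum of 1 CPM in both *Sox17*-*Erg* libraries and at most 3 counts in each control library, 31 genes belonged to this set, of which *Rpsa-ps10*, *Gm4366* and *Gm28539* did not pass the threshold. In the other direction 13 genes met the mirrored rule, among them the angiotensin receptor gene *Agtr2*, which fell from 3.73 and 1.81 CPM to 0 in both libraries and was at least 25.8-fold lower. *Tcea1-ps1*, *Gm45062*, *Nutf2-ps2*, *Gm15079* and *Gm14400* of this set did not pass the threshold.

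Among 25 endothelial surface and junction genes, 23 were tested, 10 rose and 1 fell, with a median log2 fold change of 0.34, and the share that rose, 43.5%, stands beside 9.48% of all genes. *Cdh5*, which encodes the adhesion protein of endothelial junctions, was at 0.230 and 8.08 CPM in control libraries and at 400 and 248 CPM in *Sox17*-*Erg* libraries (log2 fold change 6.29 ± 1.34 SE, adjusted p = 0.013). Its call was lost with the Day 7 libraries alone, and its log2 fold change ran from 5.3 to 10.43 when 1 library was left out. *Mcam*, an adhesion molecule of endothelium and pericytes, rose from 14.7 and 8.28 CPM to 497 and 197 CPM (4.92 ± 0.55, adjusted p = 0.00064). *Ptprb*, the vascular tyrosine phosphatase, rose from 56.2 and 36.6 CPM to 775 and 614 CPM (3.90 ± 0.44, adjusted p = 0.00067). The groups were separated in each of them, while the low control value of *Cdh5* came from replicate 1. *Emcn*, the sialomucin endomucin, went from 1.15 and 3.78 CPM to 63.6 and 50.6 CPM, and *Myct1* and *Icam2* had log2 fold changes of 4.30 and 3.98. *Pecam1* was at 8.95 and 12.4 CPM in control and 57.5 and 33.6 CPM in *Sox17*-*Erg* libraries (2.10 ± 0.39, adjusted p = 0.0069), and at an adjusted p of 0.052 without *Sox17*-*Erg* replicate 1. *Cd34*, carried by capillary endothelium and by fibroblast progenitors alike, was the gene of the list that fell, from 184 and 194 CPM to 29.5 and 72.1 CPM (-1.90 ± 0.37, adjusted p = 0.0091). The call of *Cd34* was lost with the Day 7 libraries alone. *Cldn5* and *Gpihbp1*, markers of barrier and capillary endothelium, did not pass the filter on low counts. Without *Sox17*-*Erg* replicate 1 the list had 7 higher members and 1 lower.

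Growth factor receptors and their ligands split by member. Of 22 tested, 9 rose and 4 fell, 40.9% and 18.2% beside 9.48% and 7.93% of all genes. *S1pr1*, the sphingosine-1-phosphate receptor that stabilizes vessels, rose from 2.46 and 2.85 CPM to 142 and 101 CPM (5.52 ± 0.44, adjusted p = 0.00013), while *S1pr3*, a receptor for the same lipid, fell from 82.5 and 58.3 CPM to 6.78 and 12.2 CPM (-2.90 ± 0.59, adjusted p = 0.010, or 0.10 without *Sox17*-*Erg* replicate 1). *Kdr*, the main VEGF receptor, rose from 2.77 and 2.53 CPM to 69.7 and 46.1 CPM (4.45 ± 0.47, adjusted p = 0.00047). *Calcrl*, the adrenomedullin receptor, rose by 1.32 ± 0.15 (adjusted p = 0.00067) and its accessory protein gene *Ramp2* changed by -2.65 ± 0.53 (adjusted p = 0.0095), although 31.7% of the 31-base words of *Ramp2* transcripts also lie in the overlapping gene *Vps25* and the call was lost without control replicate 2 or *Sox17*-*Erg* replicate 1 (0.056 and 0.093). The gene of another accessory protein, *Ramp3*, had 0 and 2 counts in control and was at 3.75 and 3.21 CPM in *Sox17*-*Erg* libraries (adjusted p = 0.0013). Members of one receptor system thus had opposite signs in both cases. *Pgf*, a VEGF-family ligand, rose from 6.49 and 6.15 CPM to 24.8 and 34.4 CPM (2.23 ± 0.27, adjusted p = 0.00093). Without *Sox17*-*Erg* replicate 1, the list had 8 higher and 0 lower members. Of 22 clotting and vessel tone genes, 3 rose and 7 fell, 13.6% and 31.8%. *Edn1*, which encodes the vasoconstrictor endothelin-1, rose from 25.9 and 45.6 CPM to 471 and 396 CPM (3.60 ± 0.32, adjusted p = 0.00020), and the prostaglandin genes *Ptgs1* and *Hpgd* fell by 3.31 and 3.03 on the log2 scale (adjusted p = 0.00048 and 0.0019). Without *Sox17*-*Erg* replicate 1 that list had 1 higher and 4 lower members.

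Arterial genes and the Notch pathway formed the list with the highest median, 1.5, against 0.006 over all genes, among 37 lists. All 26 members were tested, 15 rose and 2 fell, 57.7% and 7.69% beside 9.48% and 7.93% of all genes. The share that fell was that of all genes. Leaving out 1 library gave between 13 and 16 higher members. Ligands, receptors and targets were all represented. *Jag1*, a Notch ligand, rose from 52.2 and 73.7 CPM to 541 and 322 CPM (2.78 ± 0.30, adjusted p = 0.00051). *Notch3*, a receptor best known from mural cells, rose from 70.9 and 71.0 CPM to 491 and 427 CPM (2.69 ± 0.27, adjusted p = 0.00037), and *Notch1* by 1.15 ± 0.17 (adjusted p = 0.0021). Of the target genes, *Hey1* was at 0.230 and 0.522 CPM in control and 28.8 and 8.61 CPM in *Sox17*-*Erg* libraries (5.63 ± 0.69, adjusted p = 0.0010). The replicates of the *Sox17*-*Erg* group were unequal in this set, with replicate 1 above replicate 2. That order held for *Gja5*, the connexin of arterial endothelium, at 155 and 29.0 CPM against 0.230 and 0.522 CPM in control (7.93 ± 1.09, adjusted p = 0.0017). *Sema3g*, an arterial semaphorin, was at 201 and 65.8 CPM against 0.230 and 0.362 CPM (8.80 ± 0.72, adjusted p = 0.00014). *Dll4*, the arterial Notch ligand, had 2 counts in each control library and 17.0 and 1.36 CPM in *Sox17*-*Erg* libraries, and its adjusted p of 0.014 went to 0.074 and 0.090 without control replicate 1 and control replicate 2. *Efnb2*, *Bmx* and *Jag2* had log2 fold changes of 2.71, 3.84 and 3.78. *Cxcl12*, a chemokine of arteries and of stroma, fell from 166 and 208 CPM to 55.8 and 41.8 CPM (-1.94 ± 0.30, adjusted p = 0.0031). Among 10 tested venous and lymphatic genes 3 rose and 2 fell, 30% and 20%, or 2 and 0 without control replicate 1 or without *Sox17*-*Erg* replicate 1. *Prox1*, the lymphatic regulator, rose from 1.27 and 1.69 CPM to 13.8 and 9.10 CPM (2.95 ± 0.35, adjusted p = 0.00083). *Nr2f2*, the venous regulator, was at 41.4 and 57.4 CPM in control and 60.8 and 57.2 CPM in *Sox17*-*Erg* libraries (0.26 ± 0.18, adjusted p = 0.35).

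**Figure D2:**
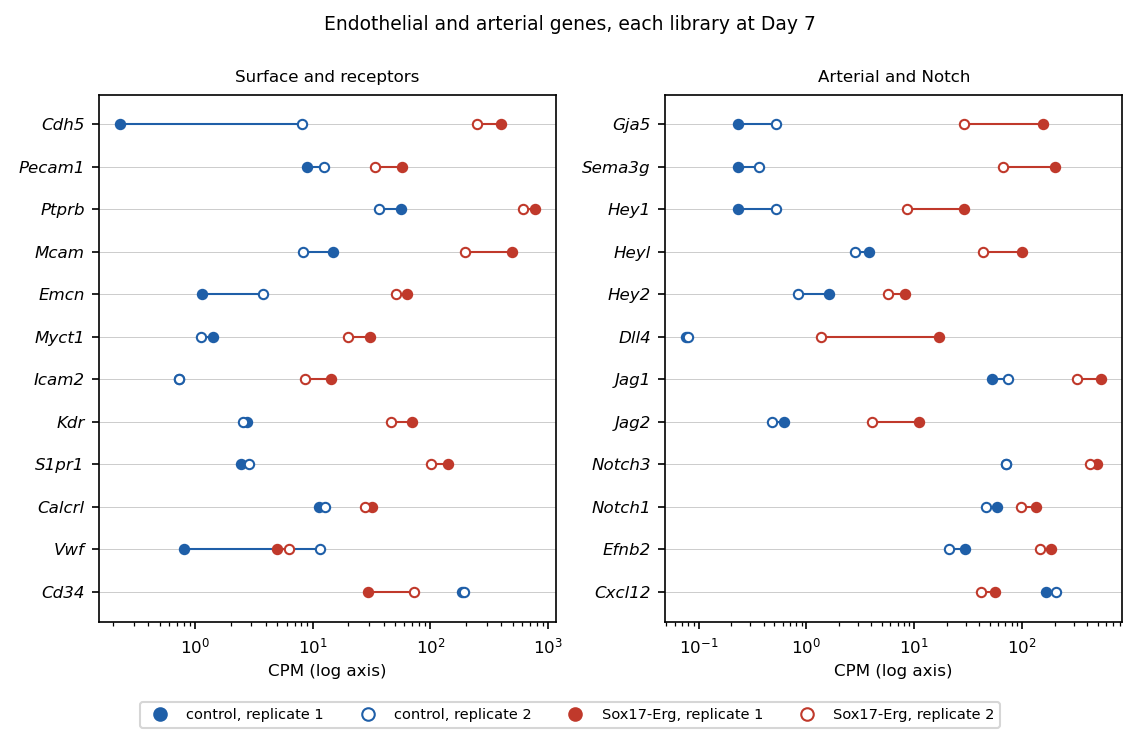
Level of 12 endothelial surface and receptor genes (left) and 12 arterial or Notch genes (right) in each Day 7 library, as CPM on a log axis. Filled points are replicate 1 and open points replicate 2, blue for control and red for *Sox17*-*Erg*. The *Sox17*-*Erg* libraries lie above the control libraries in all but *Vwf*, where the groups overlap, and *Cd34* and *Cxcl12*, where they lie below. Among the *Sox17*-*Erg* libraries, replicate 1 lies above replicate 2 for every arterial gene that rose.

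Transcription factors of endothelial and blood-forming lineages were tested in 21 of 23 cases. Of these 7 rose and 0 fell, 33.3% and 0% beside 9.48% and 7.93% of all genes, with a median of 0.19. Fewer were called higher without *Sox17*-*Erg* replicate 1. *Bcl6b*, an endothelial repressor, rose from 0.307 and 0.442 CPM to 12.8 and 15.2 CPM (5.21 ± 0.51, adjusted p = 0.00034). *Heyl*, a Notch target, rose from 3.84 and 2.81 CPM to 100 and 43.4 CPM (4.43 ± 0.52, adjusted p = 0.00083). *Elk3*, an ETS factor, rose from 49.6 and 51.3 CPM to 124 and 91.2 CPM (1.10 ± 0.18, adjusted p = 0.0036). The ETS genes *Ets1* and *Fli1*, both expressed in endothelium, did not pass the threshold, at log2 fold changes of 0.20 ± 0.15 and -0.38 ± 0.19 (adjusted p = 0.39 and 0.22). In the ETS family as a whole 3 of 20 tested genes rose, *Erg*, *Elk3* and *Erf*, 15% beside 9.48% of all genes and with the delivered factor among them, and 0 fell. *Etv2* did not pass the filter. Without *Sox17*-*Erg* replicate 1 the family had 1 higher member. In the Sox family 6 of 13 rose, the delivered *Sox17* among them, and 1 fell, 46.2% and 7.69%, or 5 and 0 without *Sox17*-*Erg* replicate 1. *Sox6*, a cartilage and muscle factor, rose from 5.26 and 3.01 CPM to 63.3 and 36.1 CPM (3.58 ± 0.55, adjusted p = 0.0030), and *Sox11*, a neural and embryonic factor, from 1.08 and 0.241 CPM to 18.0 and 6.59 CPM (4.21 ± 0.68, adjusted p = 0.0037). *Prdm1*, a repressor active in many lineages, rose from 0.154 and 0.0804 CPM to 26.0 and 21.6 CPM (7.61 ± 0.43, adjusted p = 6.8e-05). *Bcl6b*, *Heyl*, *Elk3*, *Sox6*, *Sox11* and *Prdm1* were called when any 1 Day 7 library was left out.

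Growth factor genes included some of the largest changes. *Pdgfb*, the ligand by which endothelium recruits mural cells, rose from 0.538 and 0.804 CPM to 149 and 129 CPM (7.69 ± 0.50, adjusted p = 6.7e-05). *Met*, the receptor for hepatocyte growth factor, rose from 10.9 and 7.48 CPM to 318 and 199 CPM (4.82 ± 0.49, adjusted p = 0.00041), while the gene of its ligand, *Hgf*, changed by -2.68 ± 0.61 (adjusted p = 0.017, and 0.065 or 0.077 without control replicate 2 or *Sox17*-*Erg* replicate 1). Receptor and ligand had opposite signs. *Igfbp4*, which binds insulin-like growth factors, fell from 209 and 307 CPM to 28.7 and 33.3 CPM (-3.06 ± 0.31, adjusted p = 0.00042), and *Igf1* rose from 36.1 and 76.5 CPM to 233 and 206 CPM (1.97 ± 0.36, adjusted p = 0.0066). Of the 24 tested genes of these families 7 rose and 4 fell, 29.2% and 16.7% beside 9.48% and 7.93% of all genes, and 4 and 1 did so without *Sox17*-*Erg* replicate 1. The TGF-beta and BMP list had 9 higher and 5 lower members of 29, 31% and 17.2%. Its higher members included *Ltbp1*, which stores latent TGF-beta in the matrix (2.77 ± 0.24, adjusted p = 0.00016), *Tgfb2* (1.98 ± 0.30, adjusted p = 0.0027) and the activin antagonist *Fst* (2.33 ± 0.27, adjusted p = 0.00083). Its lower members included the receptor genes *Tgfbr1* (-0.89 ± 0.11, adjusted p = 0.00097) and *Tgfbr3* (-2.44 ± 0.46, adjusted p = 0.0077), the latter a call lost with the Day 7 libraries alone. Neither ligands nor receptors went one way throughout, since the ligand gene *Bmp2* was among the lower members and the receptor gene *Bmpr2* among the higher. Of 27 Wnt pathway genes 7 rose and 4 fell, 25.9% and 14.8%, the ligand *Wnt5a* by 2.32 ± 0.36 and the receptor *Fzd4* by 2.33 ± 0.23 upward, and the inhibitor *Sfrp1* by -2.07 ± 0.25 (adjusted p = 0.0031, 0.00034 and 0.00088). Among guidance genes used by vessels, 6 of 25 rose and 5 fell, 24% and 20%. *Slit2*, a secreted guidance ligand, rose from 39.1 and 55.7 CPM to 446 and 335 CPM (3.04 ± 0.29, adjusted p = 0.00030), its receptor gene *Robo1* by 1.30 ± 0.18 (adjusted p = 0.0017), and *Sema3c* fell by 2.47 on the log2 scale (adjusted p = 0.0027). Without *Sox17*-*Erg* replicate 1 the TGF-beta, Wnt and guidance lists had 6 and 4, 6 and 1, and 4 and 3 higher and lower members. The lower members of the guidance list went to 1 without control replicate 1 or *Sox17*-*Erg* replicate 2, and those of the TGF-beta list to 2 without control replicate 2.

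**Figure D3:**
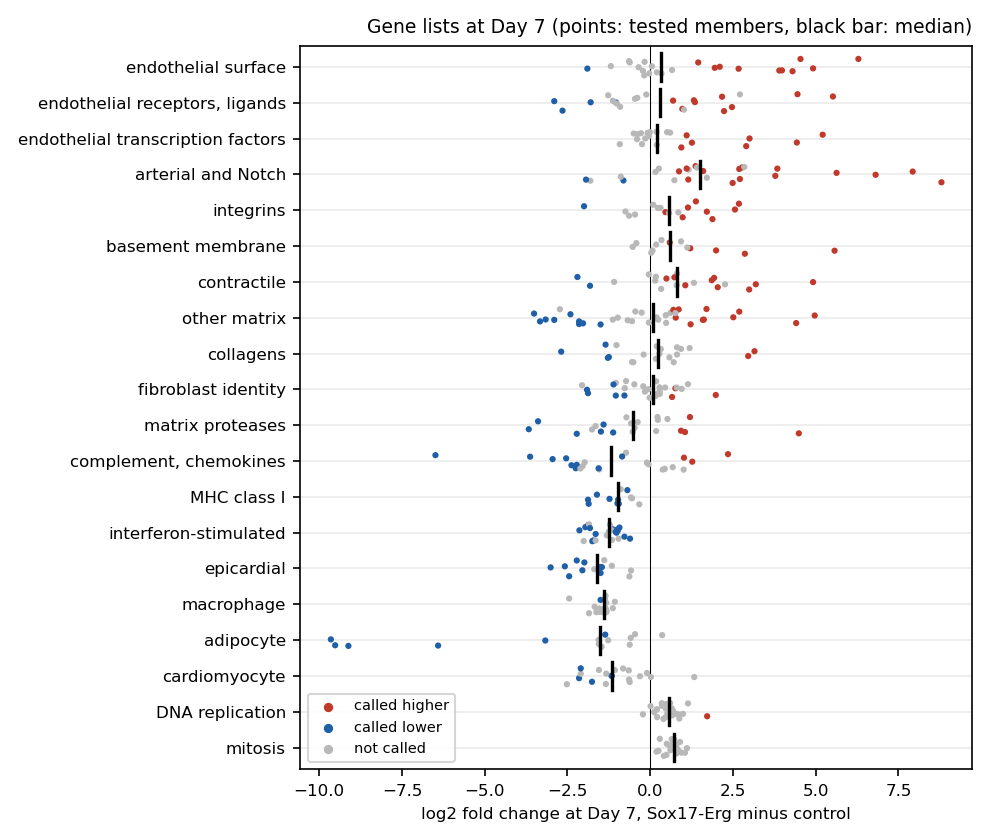
Log2 fold change at Day 7, *Sox17*-*Erg* minus control, of each tested member of 20 gene lists, with red for called higher, blue for called lower and grey for not called. The black bar is the median of the tested members of the list. The arterial and Notch list has its median at 1.5, the epicardial list at -1.59 and the interferon list at -1.23, and every tested member of the last 2 lies below 0.

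Among 28 surface proteins and transcription factors of cardiac fibroblasts, all tested, 3 rose and 5 fell, 10.7% and 17.9% beside 9.48% and 7.93% of all genes, with a median of 0.07. The share that rose was near that of all genes. *Pdgfra*, the receptor that marks cardiac fibroblasts, was at 1140 and 1900 CPM in control and 198 and 612 CPM in *Sox17*-*Erg* libraries (-1.91 ± 0.56, adjusted p = 0.044), and missed the threshold without any 1 library except *Sox17*-*Erg* replicate 2, with adjusted p values between 0.053 and 0.22. *Tcf21*, the lineage factor of these cells, was at 343 and 582 CPM against 48.2 and 174 CPM, and its log2 fold change of -2.06 ± 0.65 did not pass (adjusted p = 0.057, and 0.0062 with a replicate block within each time point). In both genes *Sox17*-*Erg* replicate 1 was the lower of its pair and the groups did not overlap, which also held in the lower direction for 28.8% of all genes tested and in the higher direction for 29%. *Gata6*, a transcription factor of heart mesenchyme, fell from 123 and 115 CPM to 49.0 and 60.9 CPM (-1.11 ± 0.18, adjusted p = 0.0034), and *Nr2f1* rose by 1.98 ± 0.23 (adjusted p = 0.00072). With the replicate number as a block within each time point, 4 members were higher and 9 lower, beside 2142 and 2065 of all 15506 genes. Fewer were called in each direction without *Sox17*-*Erg* replicate 1 or without control replicate 2.

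Among 34 matrix and matricellular genes 11 rose and 9 fell, 32.4% and 26.5% beside 9.48% and 7.93% of all genes, with a median of 0.07. *Tnc*, the matricellular protein tenascin-C of remodeling tissue, rose from 40.3 and 18.0 CPM to 1060 and 775 CPM (4.97 ± 0.48, adjusted p = 0.00032). *Postn*, a marker of activated fibroblasts, rose from 711 and 810 CPM to 3930 and 5890 CPM (2.69 ± 0.27, adjusted p = 0.00039), and the elastic fiber gene *Fbln5* from 94.0 and 151 CPM to 892 and 501 CPM (2.51 ± 0.37, adjusted p = 0.0024). The genes that fell included *Dcn*, *Ogn*, *Lum*, *Fmod* and *Prelp*, small leucine-rich proteoglycans that bind matrix fibrils, while *Bgn*, of the same class, was at 8950 and 11400 CPM against 6510 and 8400 CPM and did not pass (-0.45 ± 0.29, adjusted p = 0.33). *Dcn* (decorin) fell from 1190 and 2260 CPM to 103 and 283 CPM (-3.16 ± 0.57, adjusted p = 0.0064). *Ogn* fell from 441 and 820 CPM to 24.5 and 86.5 CPM (-3.51 ± 0.58, adjusted p = 0.0042), a call lost with the Day 7 libraries alone. *Lum* fell by 3.33 on the log2 scale (adjusted p = 0.015), a call lost without control replicate 2 or *Sox17*-*Erg* replicate 1. *Prelp* had an adjusted p of 0.042, and 0.070, 0.15 or 0.22 without control replicate 1, control replicate 2 or *Sox17*-*Erg* replicate 1. *Dcn*, *Ogn* and *Lum* were lowest in *Sox17*-*Erg* replicate 1. Without *Sox17*-*Erg* replicate 1 this list had 6 higher and 6 lower members, and without control replicate 2 it had 5 and 6.

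*Col1a1* and *Col3a1*, chains of the main fibrillar collagens, did not pass the threshold in the fit reported, and both passed with the replicate block within each time point. *Col1a1* was at 9050 and 9580 CPM in control and at 16200 and 14300 CPM in *Sox17*-*Erg* libraries (0.71 ± 0.26, adjusted p = 0.091), and *Col3a1* had a log2 fold change of -1.02 ± 0.47 (adjusted p = 0.18). Of 20 collagen chains 2 rose and 4 fell, 10% and 20% beside 9.48% and 7.93% of all genes. With the replicate block within each time point, which called 2142 genes higher and 2065 lower in all, 7 rose and 7 fell. *Col14a1*, a fibril-associated collagen, rose from 182 and 232 CPM to 1670 and 1540 CPM (2.96 ± 0.28, adjusted p = 0.00028). The 3 main chains of collagen VI fell together, *Col6a1* from 1270 and 1580 CPM to 473 and 724 CPM (-1.25 ± 0.36, adjusted p = 0.043, and 0.068, 0.17 or 0.27 without control replicate 1, control replicate 2 or *Sox17*-*Erg* replicate 1), and none of the 4 falls in the list was called without *Sox17*-*Erg* replicate 1. In the basement membrane list 5 of 13 genes rose and 0 fell, and all 5 were laminin chains. *Lama1*, an embryonic laminin, rose from 0.730 and 0.643 CPM to 47.9 and 17.4 CPM (5.57 ± 0.74, adjusted p = 0.0014), and *Lama4*, the laminin chain of endothelial basement membrane, from 193 and 220 CPM to 899 and 739 CPM (1.99 ± 0.18, adjusted p = 0.00020). Of 17 integrin genes 8 rose and 1 fell, or 3 and 0 without *Sox17*-*Erg* replicate 1. *Itga11*, a collagen receptor, rose by 2.68 ± 0.26 (adjusted p = 0.00029). Of 21 matrix proteases and inhibitors 4 rose and 6 fell, *Mmp2*, a gelatinase, from 1410 and 1960 CPM to 562 and 641 CPM (-1.49 ± 0.20, adjusted p = 0.0017), and without *Sox17*-*Erg* replicate 1 the list had 3 higher and 2 lower members, and 1 and 6 without *Sox17*-*Erg* replicate 2.

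Among called genes with a mean of at least 10 CPM in control, the largest falls by fitted log2 fold change were those of *Car3*, *Cfd*, *Adipoq*, *Lrat*, *Il33* and *Plin1*. *Car3*, a carbonic anhydrase abundant in fat and muscle, was at 115 and 6.23 CPM in control and 0.0276 and 0 CPM in *Sox17*-*Erg* libraries (adjusted p = 0.011, and 0.10 or 0.050 without *Sox17*-*Erg* replicate 1 or 2), and *Lrat*, which stores vitamin A as ester, was at 7.80 and 12.9 CPM against 0 and 0.176 CPM (adjusted p = 0.00055). *Adamts15*, which came next and encodes a proteoglycan-cleaving protease, fell from 131 and 332 CPM to 2.01 and 7.86 CPM (-5.60 ± 0.78, adjusted p = 0.0018). *Spon1*, a matrix protein, fell from 599 and 1030 CPM to 10.5 and 55.3 CPM (-4.64 ± 0.69, adjusted p = 0.0024), and *Angptl7* from 154 and 67.6 CPM to 2.07 and 3.52 CPM (-5.34 ± 0.47, adjusted p = 0.00020). *Sox17*-*Erg* replicate 1 was the lowest library in all 3. The smallest p-values among falling genes belonged to *Celf4*, an RNA-binding protein gene best known from neurons, which went from 31.4 and 27.9 CPM to 4.6 and 5.45 CPM (-2.56 ± 0.13, adjusted p = 1.9e-05). *Il33*, an alarmin of stroma and endothelium, went from 38.1 and 22.2 CPM to 0.193 and 0.527 CPM (-6.49 ± 0.40, adjusted p = 5.0e-05). *Crispld2* went from 123 and 187 CPM to 8.60 and 12.5 CPM (-3.88 ± 0.25, adjusted p = 5.8e-05). *Adamts15*, *Spon1*, *Angptl7*, *Celf4*, *Il33*, *Crispld2* and *Lrat* were called when any 1 Day 7 library was left out.

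Contractile genes of smooth muscle and myofibroblasts rose in 9 and fell in 2 of 20 tested members, 45% and 10% beside 9.48% and 7.93% of all genes, with a median of 0.81. The share that fell was near that of all genes. *Myh11*, the myosin of smooth muscle, rose from 8.33 and 9.28 CPM to 39.6 and 32.7 CPM (2.04 ± 0.29, adjusted p = 0.0021). *Acta2*, the actin of smooth muscle and myofibroblasts, was at 698 and 347 CPM in control and 2760 and 1220 CPM in *Sox17*-*Erg* libraries (1.93 ± 0.52, adjusted p = 0.033, and 0.18 or 0.24 without control replicate 2 or *Sox17*-*Erg* replicate 1). *Rgs5*, a pericyte gene, rose from 1.27 and 1.93 CPM to 12.5 and 13.0 CPM (2.99 ± 0.32, adjusted p = 0.00053). *Mylk* and *Des*, a kinase and a filament of the contractile apparatus, changed by -1.82 ± 0.51 and -2.20 ± 0.48 (adjusted p = 0.037 and 0.015). The list was thus not uniform, and it held 3 higher and 0 lower members without *Sox17*-*Erg* replicate 1, or 3 and 1 without control replicate 2. Caveolae and lipid uptake genes also split, 4 higher and 1 lower of 15 (2 and 1 without *Sox17*-*Erg* replicate 1), with *Cav1* rising from 155 and 69.0 CPM to 716 and 716 CPM (2.68 ± 0.35, adjusted p = 0.0014) and *Cavin2* falling by 1.33 on the log2 scale (adjusted p = 0.0018).

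In the lists of markers of other cell types that a heart preparation can hold, 0 genes rose and between 1 and 9 fell. The shares that fell were 64.3% of epicardial, 42.9% of adipocyte, 26.3% of cardiomyocyte, 12.5% of glial and 5.56% of macrophage genes beside 7.93% of all genes. The last pair were near or below that of all genes in this fit. With the Day 7 libraries alone 9 of the 18 macrophage genes were called lower, beside 479 of all 14576 genes. All 14 epicardial genes had a negative log2 fold change and 9 fell, with a median of -1.59, and 2 were called without *Sox17*-*Erg* replicate 1, 3 without control replicate 1 and all 14 with the replicate block within each time point. *Igfbp6* fell from 588 and 511 CPM to 78.7 and 122 CPM (-2.45 ± 0.30, adjusted p = 0.00099), and *Aldh1a2*, the retinoic acid enzyme of epicardium, from 12.7 and 12.4 CPM to 2.45 and 3.69 CPM (-2.05 ± 0.31, adjusted p = 0.0026). Of 18 macrophage genes all had a negative log2 fold change, with a median of -1.40, and 1 was called, *Gpnmb* (-1.5 ± 0.34, adjusted p = 0.017, and 0.092 or 0.082 without control replicate 2 or *Sox17*-*Erg* replicate 1). With the replicate block within each time point 16 of the 18 were lower, in a fit that called 2065 of all 15506 genes lower. Summed over the list, macrophage genes took 0.159% and 0.215% of the counts of control libraries and 0.0445% and 0.0767% of those of *Sox17*-*Erg* libraries, and the complement component *C1qa*, a defining marker, was at 75.6 and 56.9 CPM against 29.5 and 23 CPM. Of 19 cardiomyocyte genes 0 rose and 5 fell, and 0 fell without *Sox17*-*Erg* replicate 1. *Myh6*, the atrial and adult ventricular myosin, was at 40.9 and 67.4 CPM against 10.9 and 21.1 CPM (-1.76 ± 0.49, adjusted p = 0.036, and 0.18 or 0.24 without control replicate 2 or *Sox17*-*Erg* replicate 1), and 29.2% of its 31-base words are shared, mostly with *Myh7*. Of 8 glial genes 1 fell, *Cdh19*, and 0 without *Sox17*-*Erg* replicate 1. Among 14 adipocyte genes 6 fell, and 4 of them, *Adipoq*, *Plin1*, *Cidec* and *Cfd*, were mostly in control replicate 1, and 0 of the 14 were called without *Sox17*-*Erg* replicate 1. *Adipoq*, the fat cell hormone adiponectin, was at 22.7 and 1.65 CPM in control and at 0 and 0.0439 CPM in *Sox17*-*Erg* libraries, and *Cfd* at 30.1 and 1.85 CPM against 0 and 0.0439 CPM. Both stayed called without control replicate 1 (adjusted p = 0.013 and 0.0056) and missed the threshold without *Sox17*-*Erg* replicate 1 (0.10 in both).

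Interferon-stimulated genes were lower as a group. All 24 listed members were tested, all 24 had a negative log2 fold change, 15 fell and 0 rose, with a median of -1.23, and the 62.5% that fell stand beside 7.93% of all genes. *Ifit1*, an antiviral RNA-binding protein gene, was at 41 and 30.8 CPM in control and 6.42 and 9.93 CPM in *Sox17*-*Erg* libraries (-2.14 ± 0.49, adjusted p = 0.018). *Irf7*, the transcription factor that amplifies the interferon response, went from 51.7 and 36.7 CPM to 9.84 and 14.3 CPM (-1.88 ± 0.46, adjusted p = 0.023). *Gbp3*, a guanylate-binding protein gene, went from 48.3 and 38.3 CPM to 11.2 and 16.4 CPM (-1.65 ± 0.29, adjusted p = 0.0052). The groups did not overlap in these genes, as in the 28.8% of all genes given above, and the lower *Sox17*-*Erg* value was that of replicate 1. Fewer members were called when 1 Day 7 library was left out, and fewest without *Sox17*-*Erg* replicate 1, as over all genes. The log2 fold changes then ran from -2.52 to -1.85 for *Ifit1*, from -2.21 to -1.63 for *Irf7* and from -1.99 to -1.4 for *Gbp3*. With the replicate block within each time point 22 of the 24 members were called lower, beside 2065 of all 15506 genes. Macrophage genes moved with this list, at 1532 and 2220 CPM summed in control and 452 and 767 CPM in *Sox17*-*Erg* libraries, and their part in the result was not tested.

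Interferon-stimulated genes are known by their induction through the factors that bind the element searched here, so its share in their promoters describes the list and not the Day 7 values. The interferon-stimulated response element (ISRE), the site of the STAT and IRF factors, was searched as GAAA, any 2 bases and GAAA on both strands in windows of 300 bases, from 250 before to 50 after the start of each gene, in the RefSeq promoter table for GRCm38.p6. Of the 24 genes 18 had a window and 11 of the 18, 61.1%, held the letters, against 3.92% of the windows of all 11214 tested genes that had one, 6.70% of those of genes called lower and 2.82% of those of genes called higher. 4 windows are shown, 5′ to 3′ on the strand of the gene with the matching letters in capitals, because they let the element be read beside the values: *Ifit1* with a pair of matches, *Gbp2* and *Rsad2* from the same list, and *B2m* from the class I list. In the first 3 the capitals are on the opposite strand and read as the reverse complement.
Ifit1, chr19:34640639-34640938, plus strand: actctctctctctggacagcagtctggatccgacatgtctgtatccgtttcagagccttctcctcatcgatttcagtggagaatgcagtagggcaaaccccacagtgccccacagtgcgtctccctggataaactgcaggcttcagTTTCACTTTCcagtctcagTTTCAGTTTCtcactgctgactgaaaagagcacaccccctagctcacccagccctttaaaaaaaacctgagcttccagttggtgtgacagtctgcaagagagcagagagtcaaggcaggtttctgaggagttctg
Gbp2, chr3:142620413-142620712, plus strand: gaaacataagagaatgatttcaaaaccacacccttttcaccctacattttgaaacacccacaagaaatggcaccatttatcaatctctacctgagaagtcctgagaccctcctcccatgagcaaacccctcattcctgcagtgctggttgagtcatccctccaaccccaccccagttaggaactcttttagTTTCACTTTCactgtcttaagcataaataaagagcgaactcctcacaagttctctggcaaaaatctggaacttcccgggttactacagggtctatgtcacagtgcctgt
Rsad2, chr12:26456403-26456702, minus strand: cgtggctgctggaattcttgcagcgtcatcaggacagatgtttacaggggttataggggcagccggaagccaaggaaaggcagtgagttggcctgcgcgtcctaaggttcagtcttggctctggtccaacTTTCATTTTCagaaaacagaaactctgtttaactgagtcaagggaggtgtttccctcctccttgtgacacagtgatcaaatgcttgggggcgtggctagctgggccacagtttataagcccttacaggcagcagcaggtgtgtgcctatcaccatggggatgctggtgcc
B2m, chr2:122147437-122147736, plus strand: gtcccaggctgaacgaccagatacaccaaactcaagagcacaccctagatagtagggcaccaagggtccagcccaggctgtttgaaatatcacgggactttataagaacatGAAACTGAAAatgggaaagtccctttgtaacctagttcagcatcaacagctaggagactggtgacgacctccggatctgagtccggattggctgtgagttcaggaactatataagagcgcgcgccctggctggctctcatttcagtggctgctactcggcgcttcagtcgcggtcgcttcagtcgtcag
In the libraries, *Gbp2* went from 38.5 and 28.5 CPM to 15.2 and 17.8 CPM (-1.02 ± 0.20, adjusted p = 0.0079, or 0.081 without *Sox17*-*Erg* replicate 1) and *Rsad2*, the antiviral enzyme viperin, from 5.45 and 3.38 CPM to 1.30 and 1.19 CPM (-1.82 ± 0.41, adjusted p = 0.017, and 0.079, 0.11 or 0.065 without control replicate 1, *Sox17*-*Erg* replicate 1 or *Sox17*-*Erg* replicate 2). A match is a description of the letters and not of binding. The same search with the ETS letters CCGGAAGT found them in 5.09% of the windows of genes called higher, 3.02% of those called lower and 9.13% of those called neither, and in 0 of the 22 windows of the arterial and Notch list. The shorter ETS letters AGGAAG were in 37.8%, 41.6% and 36.8% of the windows of genes called higher, lower and neither, in 4 of the 22 arterial windows and in 7 of 11 windows of the endothelial surface list. The Sox letters ACAATNG were in 7.36%, 6.82% and 6.09% of the windows of genes called higher, lower and neither.

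MHC class I and antigen processing genes fell in 8 of 12 cases, 66.7% beside 7.93% of all genes, and rose in 0, with a median of -0.96. The macrophage sums given above moved with this list too, and their part was not tested. *H2-D1*, a class I heavy chain, went from 754 and 665 CPM to 273 and 334 CPM (-1.23 ± 0.16, adjusted p = 0.0014), and was the only member called without *Sox17*-*Erg* replicate 1, although 26.7% of its 31-base words are shared with other genes, mostly *H2-K1*. *B2m*, the light chain, went from 1040 and 861 CPM to 461 and 510 CPM (-0.97 ± 0.19, adjusted p = 0.0087, or 0.081 without *Sox17*-*Erg* replicate 1). The complement genes *C3* and *C1s1* had larger falls than *H2-D1* and *B2m*. *C3*, the central complement protein, fell from 741 and 846 CPM to 36.9 and 91.4 CPM (-3.63 ± 0.48, adjusted p = 0.0014), and *C1s1*, a protease of the classical pathway that shares 33.5% of its words with *C1s2*, from 129 and 144 CPM to 20.7 and 38.1 CPM (-2.22 ± 0.31, adjusted p = 0.0018). Both were called when any 1 Day 7 library was left out. Of the 24 tested complement, chemokine and cytokine genes 9 fell and 3 rose, 37.5% and 12.5% beside 7.93% and 9.48% of all genes. The share that rose was near that of all genes, and fewer were called in each direction without *Sox17*-*Erg* replicate 1. The genes that rose were chemokines and a cytokine, not complement genes. *Cx3cl1*, the membrane-bound chemokine of endothelium, rose from 36.0 and 30.4 CPM to 81.2 and 78.6 CPM (1.27 ± 0.19, adjusted p = 0.0028), and *Ccl2*, which attracts monocytes, from 20.1 and 21.0 CPM to 36.1 and 47.5 CPM (1.02 ± 0.14, adjusted p = 0.0015).

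**Figure D4:**
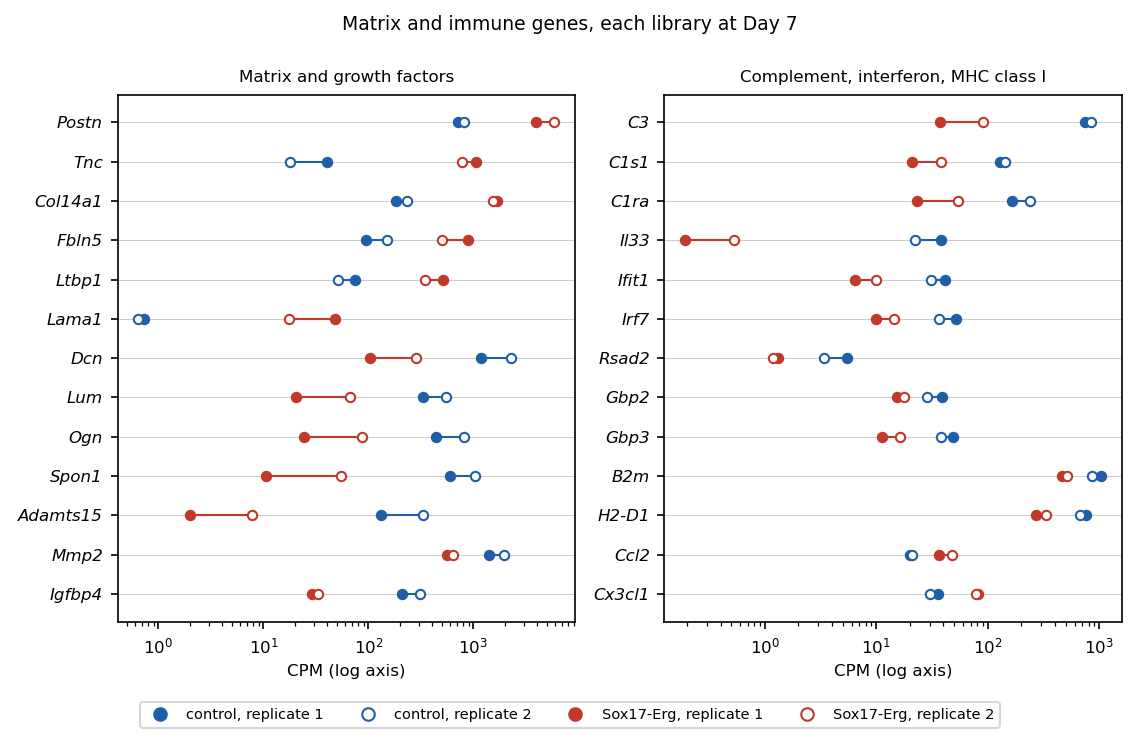
Level of 13 matrix and growth factor genes (left) and 13 complement, interferon, class I and chemokine genes (right) in each Day 7 library, as CPM on a log axis, with blue for control, red for *Sox17*-*Erg*, filled points for replicate 1 and open points for replicate 2. The groups do not overlap in any gene shown, which also holds for 29% of all tested genes in the higher and 28.8% in the lower direction, and in most of the genes that fell the filled red point, *Sox17*-*Erg* replicate 1, is the lowest.

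Cell cycle genes differed between the replicates of each group. Summed over 22 mitosis genes the control libraries held 842 and 279 CPM and the *Sox17*-*Erg* libraries 1357 and 531 CPM, so replicate 1 was higher in both groups and the ranges overlapped. The median log2 fold change was 0.72, all 22 values were above 0, and 0 were called. *Top2a*, which untangles chromosomes, was at 132 and 37.7 CPM in control and 228 and 88.2 CPM in *Sox17*-*Erg* libraries (0.90 ± 0.63, adjusted p = 0.36, or 0.026 with the replicate block within each time point). Of 26 DNA replication genes 25 had a positive log2 fold change and 1 was called, *Pola1*, a subunit of DNA polymerase alpha (1.72 ± 0.39, adjusted p = 0.018, and 0.10 without control replicate 2 or *Sox17*-*Erg* replicate 1). With the replicate block within each time point 15 replication genes and 4 mitosis genes were higher. Among genes of basic metabolism, 8.33% of the glycolysis and hypoxia list rose and 12.5% fell, beside 9.48% and 7.93% of all genes. Of 24 respiratory chain genes and 20 cholesterol synthesis genes 0 were called, of 24 glycolysis and hypoxia genes 2 rose and 3 fell (2 and 0 without *Sox17*-*Erg* replicate 1), and of 24 ribosomal protein genes 1 rose, or 0 without control replicate 1, control replicate 2 or *Sox17*-*Erg* replicate 1. Of 19 p53 and arrest genes 4 rose and 1 fell, of 18 ERK feedback genes 2 rose and 2 fell, and of 20 potassium channel genes 2 rose and 2 fell. The last pair of lists stood at 11.1% and 10% in each direction, near the 9.48% and 7.93% of all genes. The 3 lists had 2 and 1, 0 and 1, and 1 and 1 such members without *Sox17*-*Erg* replicate 1. Without control replicate 2 they were 1 and 1, 0 and 2, and 0 and 1. With the replicate block within each time point, which called 2142 genes higher and 2065 lower in all, 7 ERK feedback genes were higher and 3 lower, 7 p53 and arrest genes higher and 2 lower, and 4 cholesterol synthesis genes higher.

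The Day 7 effect was then set against Day 3 and 4 weeks, which have control and *Sox17*-*Erg* libraries of their own. Of the 1470 genes that rose at Day 7, 1381 had a positive log2 fold change at Day 3, where 701 were called higher, and 1434 at 4 weeks, where 1105 were. Over all tested genes 7.19% were called higher at Day 3 and 11.9% at 4 weeks, and 5.13% and 11% lower. Their median log2 fold change was 0.65 at Day 3 and 1.03 at 4 weeks, but these genes were chosen for their value at Day 7, so the smaller medians at the other times are a description. Of the 1230 genes that fell, 432 were also called lower at Day 3 and 953 at 4 weeks, with medians of -0.78 and -1.28. The test of the difference itself, an interaction term in the same fit, called 13 genes between Day 3 and Day 7, 0.0838% of those tested (5 with a more positive effect at Day 7, 0.0322%, and 8 with a more negative one, 0.0516%), and 1381 at an unadjusted p under 0.05. *Celf4* was at 0.04 ± 0.13 at Day 3 and -2.56 ± 0.13 at Day 7, a difference of -2.61 ± 0.18 (adjusted p = 0.0019), and was the only one of the 13 that was called whichever Day 7 library was left out (0.0069 to 0.012). *Igfbp3*, a binding protein of insulin-like growth factors, was at 4.83 ± 0.42 at Day 3 and 0.73 ± 0.36 at Day 7 (adjusted p = 0.043 for the difference). *Cd9*, a tetraspanin, was at -0.53 ± 0.16, 1.22 ± 0.16 and 3.34 ± 0.18 at Day 3, Day 7 and 4 weeks, and was called in both differences (adjusted p = 0.043 and 0.020). Between Day 7 and 4 weeks 6 genes were called, 0.0387% of those tested (4 more positive at 4 weeks, 0.0258%, and 2 more negative, 0.0129%), and 1004 had an unadjusted p under 0.05. *Rab3c*, a vesicle GTPase, was at 4.41 ± 0.34 at Day 7 and -0.03 ± 0.34 at 4 weeks (adjusted p = 0.020), while *Gpc1*, a heparan sulfate proteoglycan, was at 1.29 ± 0.20 and 4.37 ± 0.23 (adjusted p = 0.020).

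**Figure D5:**
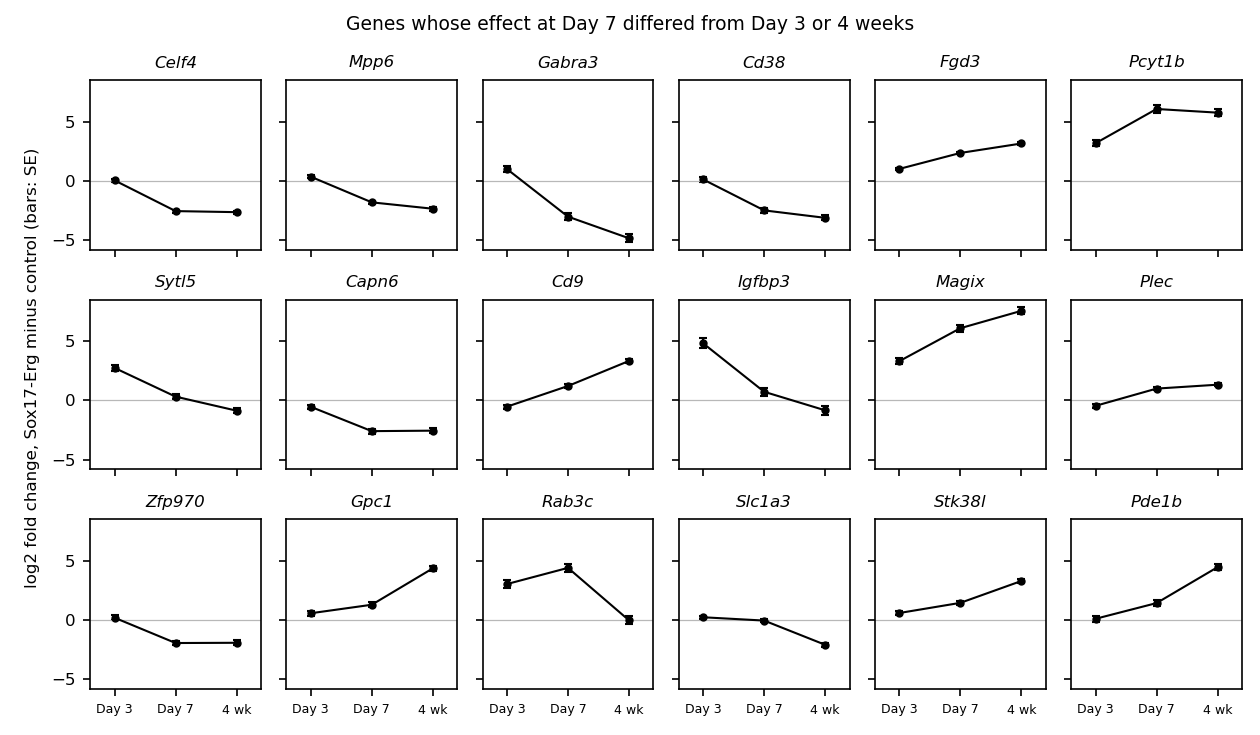
Log2 fold change, *Sox17*-*Erg* minus control, at Day 3, Day 7 and 4 weeks for the 18 genes whose effect at Day 7 differed from that at Day 3 or at 4 weeks (adjusted p under 0.05 for the interaction), with bars for the standard error of the fit. *Celf4*, *Mpp6*, *Cd38*, *Capn6* and *Zfp970* reach their Day 7 value by a step from Day 3, *Cd9*, *Gpc1*, *Stk38l* and *Pde1b* go on rising to 4 weeks, and *Rab3c* returns to about 0.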

How the data were processed

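Bulk RNA from control and *Sox17*-*Erg* cultures was sequenced as stranded mRNA libraries, 2 per group at each of 3 time points. The authors deposited 1 estimated count per gene and library, made with Salmon after removal of high-GC reads (mm10 per the labels, bcl2fastq 2.20.0; the Salmon version is not given in the sources used here). Here the estimated counts were rounded and fitted over all 12 libraries with edgeR 4.0.16 (R 4.3.3): filterByExpr (minimum count 10, total 15), TMM, 1 mean per group, quasi-likelihood test with 6 residual degrees of freedom, Benjamini-Hochberg adjusted p under 0.05. Alternatives were DESeq2 1.42.0, its size factors, other filters, Day 7 libraries alone, each Day 7 library left out, and replicate blocks. Named genes were fixed factors and markers, the largest and most significant changes, the leading members of each list and all genes with a difference between times; further ones were chosen after their values were seen. Members and lists were chosen with earlier results of these data known. Same-numbered libraries deviated together (correlations 0.19, 0.3 and 0.17 at the 3 times), and the sources do not say what a number marks. The calls reported come from the fit without pairing, and the replicate number enters only in the blocks. Nothing says that replicates came from separate cultures, so p-values measure the spread between libraries, which may be technical. An exact permutation test of 2 against 2 cannot go below p = 0.33.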

Additional observations from a re-analysis of the deposited data

Results flagged for a closer look

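The effect of *Sox17*-*Erg* differed between times in 19 tests of the difference itself, an interaction term in the edgeR fit with Benjamini-Hochberg adjustment, and every value here is a difference of log2 fold changes. From Day 3 to Day 7 the effect went down for *Celf4* (-2.61), *Mpp6* (-2.17), *Gabra3* (-4.03), *Cd38* (-2.63), *Sytl5* (-2.44), *Capn6* (-2.06), *Igfbp3* (-4.1) and *Zfp970* (-2.14). It went up for *Fgd3* (1.35), *Pcyt1b* (2.9), *Cd9* (1.75), *Magix* (2.8) and *Plec* (1.46). From Day 7 to 4 weeks it went up for *Cd9* (2.12), *Gpc1* (3.07), *Stk38l* (1.85) and *Pde1b* (3.04), and down for *Rab3c* (-4.43) and *Slc1a3* (-2.04).

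Of these, *Celf4* was called in 4 of 4 fits that left out 1 Day 7 library and *Mpp6* in 3. *Fgd3*, *Pcyt1b*, *Capn6*, *Magix*, *Plec*, *Rab3c* and *Pde1b* were called in 0 of 4, as was *Cd9* for Day 3 to Day 7. *Cd38*, a surface enzyme that consumes NAD, was at 147 and 118 CPM in control and 24.6 and 22.1 CPM in *Sox17*-*Erg* libraries at Day 7, against 23.1 and 23.9 CPM and 27.8 and 23.4 CPM at Day 3. The difference in effect therefore lay in the control libraries, which rose between the times while the *Sox17*-*Erg* libraries stayed in one range. *Igfbp3* had control at 18.1 and 26.4 CPM at Day 3 and 311 and 719 CPM at Day 7, and *Sox17*-*Erg* at 736 and 530 CPM and then 852 and 858 CPM, so both groups were higher at Day 7 and the control libraries by more. For *Zfp970*, 67.9% of the 31-base words of its transcripts are shared with other genes, and for *Stk38l* 22%, so their counts are uncertain.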

How the results depend on the processing

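With 2 libraries a group, single libraries decide many calls. Leaving out 1 Day 7 library gave 623 to 1216 higher and 297 to 1292 lower genes, the fewest without *Sox17*-*Erg* replicate 1, against 791 and 586 without control replicate 2. Day 7 libraries alone gave 609 and 479, an adjusted p under 0.01 gave 691 and 410, and a minimum absolute log2 fold change of 1 gave 779 and 798. Among the genes checked by name, 55 calls were lost with the Day 7 libraries alone. They included *Erg*, *Cdh5*, *Cd34*, *Dll4*, *Ogn*, *Tgfbr3*, *Pdgfra*, *Acta2*, *Adipoq* and *Cfd*. In that fit 12 arterial, 8 endothelial surface and 3 contractile genes were higher, and 8 interferon, 2 class I and 9 macrophage genes were lower. No filter gave 1678 and 1729 and a minimum of 1 CPM in 4 libraries 1318 and 1399, so lower genes were then the majority. DESeq2 gave 1677 and 1595. With a replicate block within each time point there were 2142 higher and 2065 lower genes, of which 1447 and 1213 were shared with the calls reported, and with 1 block over all libraries 1572 and 1460.

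The difference between Day 3 and Day 7 (13 genes) went to 279 with DESeq2, 452 without a filter, 131 with the block within time points and 1 at 0.01, and to 3 to 10 with 1 library left out. That between Day 7 and 4 weeks (6 genes) went to 144, 245, 33 and 0, to 14 with the block over all libraries, and to 0 to 7. *Vwf* ran from -1.04 without control replicate 1 to 2.79 without control replicate 2, and turned to 0.06 without *Sox17*-*Erg* replicate 1 and to 0.23 and 0.53 with the 2 replicate blocks. Without 1 library, *Flt4* ran from -1.3 (without *Sox17*-*Erg* replicate 2) to 0.06 (without *Sox17*-*Erg* replicate 1), *Thy1* from -0.44 to 0.04 likewise, and *Ets1* from -0.07 to 0.4. The causes were not tested.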
